A study of Homo sapiens with 6 samples.

Results

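Voltage-gated calcium, voltage-gated sodium and potassium channel genes were examined in SK-N-BE(2), a human neuroblastoma cell line, after a short hairpin RNA against MYT1 (shMYT1) or a control hairpin (shNC). The 119 genes are the protein-coding rows of the deposited expression table whose symbols begin with CACNA, CACNB or CACNG (23 calcium channel genes), with SCN and a subunit number followed by A or B (13 sodium channel genes), or with KCN and a family letter and number (83 potassium channel genes), of 32434 gene IDs in all. Membership was decided by symbol. There were 3 libraries of total RNA per group. Both groups are derivatives of the same line. The labels describe lentiviral infection for 24 h and puromycin selection for 48 h to obtain stable knockdown cells, and give the genotypes as control and MYT1 knockout. No label names the hairpin sequence or says that the replicates were separate cultures, and p-values therefore reflect only how far these libraries spread, which may be technical.

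Ion channels are membrane proteins that let ions cross along their electrochemical gradient. In neurons and neuroendocrine cells, sodium channels start the action potential, calcium channels couple depolarization to secretion and transcription, and potassium channels set the resting potential and end the spike. Voltage-gated channels have pore subunits, which carry the voltage sensor and the selectivity filter. Many also have auxiliary subunits that govern traffic and gating. Neuroblastoma arises from the sympathoadrenal lineage of the neural crest, whose mature cells are excitable.

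Values are FPKM, fragments per kilobase of exon scaled to library size, which allow levels of different genes to be compared per length. Recovered fragments, counted in units of 1e6, totalled 21.08 to 21.68 per shNC library and 18.16 to 20.3 per shMYT1 library. MYT1, the targeted zinc-finger gene, was at 5.73, 5.12 and 5.18 FPKM in shNC and 4.20, 4.13 and 4.36 FPKM in shMYT1. That is a fall of 0.28 on the log2(FPKM + 1) scale (limma adjusted p = 0.0102), with groups that did not overlap, and the mean decreased by 20.8%. For MYT1 alone, a two-sided exact permutation test returned p = 0.1, and 3 libraries against 3 can give no smaller value. All 14 noradrenergic neuroblastoma markers were above the 1 FPKM filter. Of these, 4 were higher and 4 lower in shMYT1, and their sums of 3590 to 3750 FPKM in shNC and 3170 to 3262 FPKM in shMYT1 did not overlap. Marker genes of other cell types were summed: 12 of fibroblasts or smooth muscle reached 197 to 202 FPKM in shNC libraries and 155 to 158 FPKM in shMYT1 libraries, 7 of glia 2.28 to 2.46 and 2.77 to 3.50 FPKM, 8 of striated muscle 0.712 to 1.05 and 0.759 to 1.01 FPKM, and 9 of endothelium or blood 0.473 to 0.691 and 1.21 to 2.25 FPKM. Of the 9 fibroblast or smooth muscle markers tested, 4 rose and 3 fell, with a median log2 fold change of 0.09, and the sum was led by LUM, at means of 97.7 and 54.6 FPKM. The part of these differences in the channel results was not tested. In bulk RNA, fewer cells that express a gene and less RNA per cell cannot be told apart.

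Of the 119 channel genes, 40 averaged 1 FPKM or more across the 6 libraries and were tested. Of these, 11 rose and 10 fell in shMYT1 and 19 did not pass (limma on log2(FPKM + 1), Benjamini-Hochberg adjusted p under 0.05 over all 14106 tested genes). The 21 genes that passed are 52.5% of the tested channel genes, where 24.2% of all tested genes and 27.7% of tested protein-coding genes passed. Rises made up 11 of 40 against 11.9% of all tested genes, and falls 10 of 40 against 12.3%. Rises and falls were nearly equal in number, and the log2 fold changes of channel genes had a median of 0.04, against -0.005 over all tested genes. The median absolute log2 fold change was 0.19 in channel genes and 0.11 in all tested genes, and 6 of the 40 (15%) moved by more than 0.5, against 4.67% of all tested genes. The groups did not overlap in 28 of the 40, where 42.3% of all tested genes had separate groups. For 4 tested genes, CACNA1C, CACNB2, CACNG8 and KCNAB1, only 1 group had a mean of 1 FPKM or more. They entered the test through that group.

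**Figure D1:**
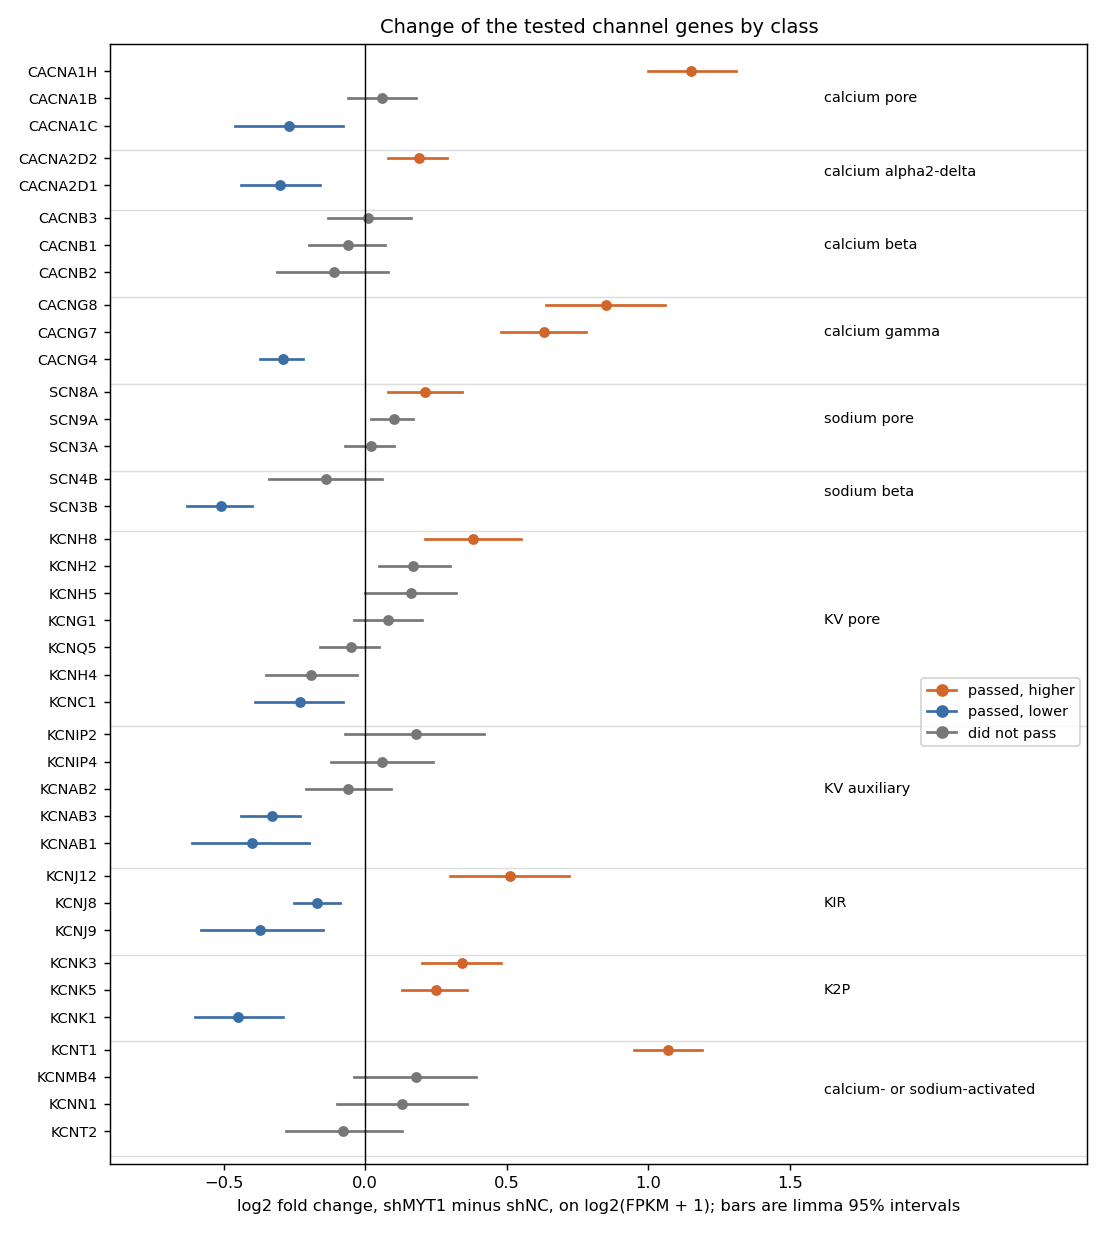
Log2 fold change (shMYT1 minus shNC, on log2(FPKM + 1)) of 38 of the 40 tested channel genes, with limma 95% intervals, by subunit class. Genes that passed are coloured by direction, and CACNA1H (1.15) and KCNT1 (1.07) lie farthest to the right.

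On the log2(FPKM + 1) scale a calcium channel gene, CACNA1H, showed the largest change of the 40 genes. The order depends on the scale: the ratio of means was 2.87 for CACNG8, 2.76 for KCNT1 and 2.47 for CACNA1H. With voom on recovered fragments their log2 fold changes were 1.54, 1.47 and 1.31. Of 23 genes, 11 were tested, 4 rose (CACNA1H, CACNG7, CACNG8, CACNA2D2), 3 fell (CACNG4, CACNA2D1, CACNA1C) and 4 did not pass. Their median log2 fold change was 0.01 and their median absolute log2 fold change 0.27. The share that passed was 63.6%, against 24.2% of all tested genes and 27.7% of tested protein-coding genes.

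CACNA1H encodes the pore of a T-type channel, which opens at voltages near rest (ENSG00000196557, chromosome 16, 1153121 to 1221772, plus strand, hg38). It was at 4.43, 5.21 and 5.34 FPKM in shNC and at 12.5, 11.9 and 12.6 FPKM in shMYT1, all shMYT1 libraries lying far above all shNC libraries. The means of 4.99 ± 0.490 and 12.3 ± 0.393 FPKM (SD, n = 3 each) differed 2.47-fold, a log2 fold change of 1.15 (SE 0.06, 95% interval 1.00 to 1.31, limma adjusted p = 0.000145). These levels rest on 819 to 2141 fragments per library. CACNA1H shares 224 of its 8606 exon bases with opposite-strand genes, and since no strand setting is stated, fragments from shared bases cannot be told apart. Among those genes, TPSG1 had means of 0.101 and 0.695 FPKM (shNC, shMYT1). The other T-type pore genes were far lower. CACNA1G was at 0.494, 0.491 and 0.511 FPKM in shNC and 0.728, 0.606 and 0.707 FPKM in shMYT1, also without overlap but under the filter, and CACNA1I had means of 0.0686 and 0.0693 FPKM.

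Among high-voltage-activated pore genes, 1 fell and none of the others passed. CACNA1C, the pore of an L-type channel, was at 1.33, 1.27 and 1.36 FPKM in shNC and 0.947, 0.826 and 0.984 FPKM in shMYT1. Its groups did not overlap, and it fell by 0.27 on the log2 scale (limma adjusted p = 0.0486). The CACNA1C call stood at the threshold: it was lost in 10 of 14 alternatives, with adjusted p up to 0.127, while voom on recovered fragments gave adjusted p = 6.09e-06. CACNA1C shares exon bases with 3 opposite-strand genes, of which CACNA1C-AS1 had means of 0.549 and 0.303 FPKM (shNC, shMYT1) and CACNA1C-AS2, with overlapping groups, 1.32 and 1.11 FPKM. The other is AC092471.1. CACNA1B, the N-type pore of presynaptic terminals, was at 3.67, 3.46 and 3.85 FPKM in shNC and 3.82, 3.73 and 3.99 FPKM in shMYT1. Those groups overlapped (log2 fold change 0.06, 95% interval -0.06 to 0.18, limma adjusted p = 0.458). CACNA1A, CACNA1D and CACNA1F stayed under 0.1 FPKM in all 6 libraries. Within that range CACNA1D had means of 0.0322 and 0.0662 FPKM (shNC, shMYT1), with shMYT1 above and no overlap.

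Summed over the 8 pore genes, the level was 10.1, 10.6 and 11.1 FPKM in shNC and 18.1, 17.2 and 18.5 FPKM in shMYT1. CACNA1H held 44 to 49.2% of that sum in the shNC libraries and 68.2 to 69.1% in the shMYT1 libraries. CACNA1B was next, at 3.66 FPKM on average in shNC and 3.85 FPKM in shMYT1. The bar chart of summed FPKM shows that the added height in shMYT1 lay almost wholly in the CACNA1H part.

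**Figure D2:**
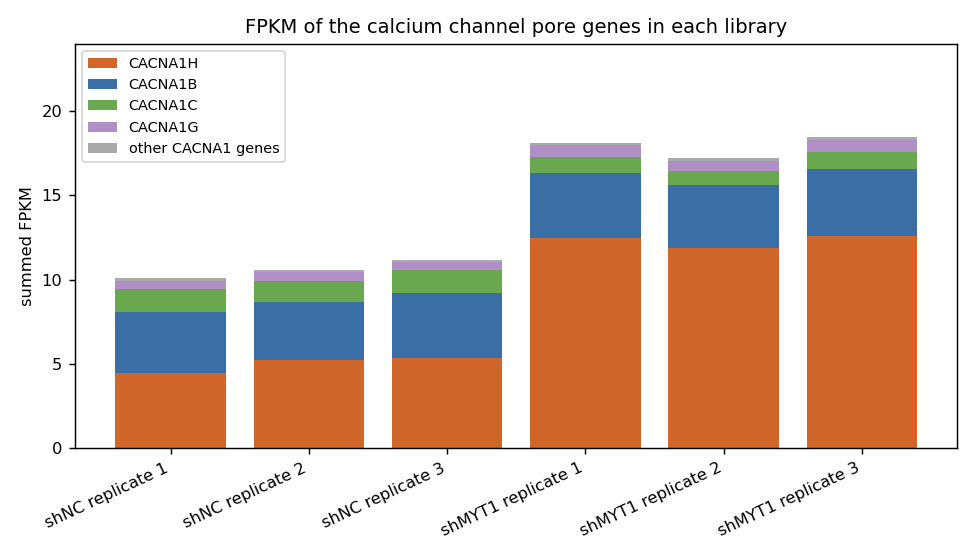
Stacked FPKM of the CACNA1 pore genes in each of the 6 libraries. The CACNA1H part is 4.43 to 5.34 FPKM in the shNC bars and 11.9 to 12.6 FPKM in the shMYT1 bars.

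Alpha2-delta subunits, extracellular proteins that raise the number of calcium channels at the surface, went opposite ways. CACNA2D1 was at 18.2, 17.7 and 17.0 FPKM in shNC and 15.0, 14.5 and 12.9 FPKM in shMYT1, every shMYT1 library lying below every shNC library. It fell by 0.30 on the log2 scale (SE 0.06, limma adjusted p = 0.0121). CACNA2D2 was at 4.12, 4.27 and 4.50 FPKM in shNC and 5.17, 4.88 and 5.01 FPKM in shMYT1. It rose by 0.19 (limma adjusted p = 0.0276), a call lost in 6 of 14 alternatives with adjusted p up to 0.0921. CACNA2D3, under the filter, was at 0.329, 0.163 and 0.347 FPKM in shNC and 0.644, 0.763 and 0.759 FPKM in shMYT1. The groups of CACNA2D3 did not overlap either, and it rose in the fit without the filter (log2 fold change 0.43, limma adjusted p = 0.0361), on 16 to 63 fragments per library. In that fit 7.89% of all 32434 genes passed. CACNA2D1 remained the highest of the 4 in every library, at 77.7 to 80.2% of their summed FPKM in shNC and 68.9 to 71.9% in shMYT1.

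Beta subunits, the cytoplasmic partners of high-voltage-activated pores, gave no call. CACNB3 had means of 4.27 and 4.32 FPKM (shNC, shMYT1), CACNB1 4.06 and 3.85 FPKM, and CACNB2 1.15 and 0.981 FPKM (log2 fold changes 0.01, -0.06 and -0.11, limma adjusted p from 0.368 to 0.894). CACNB4 averaged 0.141 and 0.115 FPKM. The groups of CACNB2 did not overlap, shMYT1 lying below, while those of the other beta genes did. The 95% intervals of the 3 tested genes lay between -0.31 and 0.16.

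Genes named CACNG encode tetraspan proteins, most of which are transmembrane AMPA receptor regulatory proteins that bring glutamate receptors to the synapse, while CACNG1 and CACNG6 encode calcium channel subunits proper. CACNG4, the second highest of all 119 genes in shNC, was at 19.7, 19.4 and 20.6 FPKM there and at 16.0, 15.9 and 16.2 FPKM in shMYT1. It fell by 0.29 (SE 0.03, limma adjusted p = 0.00154). CACNG7 was at 5.22, 5.51 and 6.34 FPKM in shNC and 9.52, 9.33 and 9.13 FPKM in shMYT1, a rise of 0.63 (SE 0.06, limma adjusted p = 0.00111). CACNG8 was at 0.591, 0.779 and 0.872 FPKM in shNC and 2.26, 2.08 and 2.10 FPKM in shMYT1, with means differing 2.87-fold and a rise of 0.85 on the log2 scale (SE 0.09, limma adjusted p = 0.00119). In all 3 genes the groups lay apart. CACNG2, under the filter, averaged 0.347 and 0.514 FPKM, again without overlap, while CACNG5 and CACNG1 had 1 to 14 fragments in each library.

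The family members that rose and the one that fell sit in different gene clusters. CACNG7 (53909335 to 53943941), CACNG8 (53963040 to 53990215) and CACNG6 (53992288 to 54012669) follow each other on the long arm of chromosome 19, plus strand, hg38. CACNG5 (66835117 to 66885486), CACNG4 (66964910 to 67033398) and CACNG1 (67044590 to 67056797) do so on chromosome 17. The median log2 fold change of the 50 tested genes around CACNG7 and CACNG8 was 0.24, and that around CACNG4 was -0.04. With the local median subtracted, CACNG7 kept a log2 fold change of 0.39 (limma adjusted p = 0.00868) and CACNG8 of 0.61 (limma adjusted p = 0.00608). CACNG6, the third gene of the chromosome 19 cluster, was listed at 0 in all shNC libraries and had at most 3 fragments in any library.

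**Figure D3:**
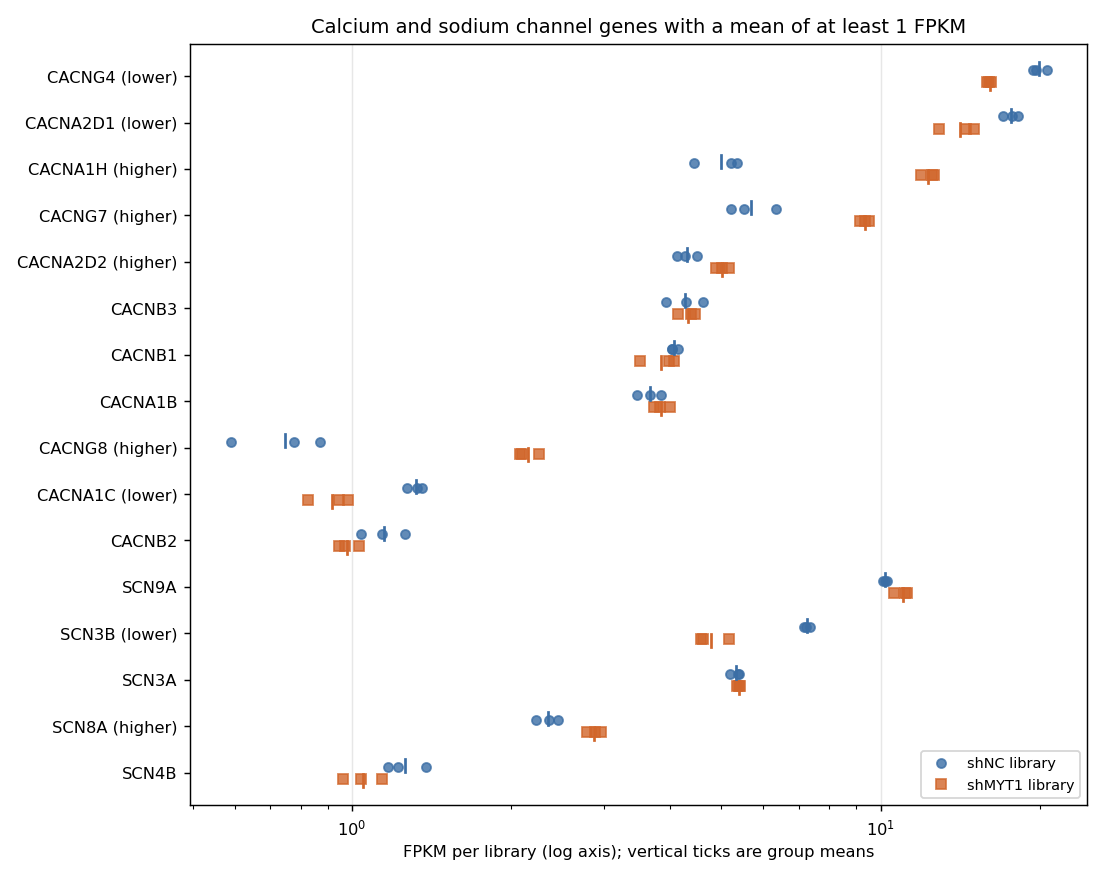
FPKM (log axis) of 11 calcium and 5 sodium channel genes averaging 1 FPKM or more, 1 point per library, with group means as ticks. The shNC and shMYT1 points of CACNA1H, CACNG7, CACNG8, CACNG4 and SCN3B lie apart, and those of SCN3A overlap.

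The clearest change among sodium channel genes was in a beta subunit, SCN3B. Of 13 genes, 6 were tested, 1 rose (SCN8A), 1 fell (SCN3B) and 4 did not pass. Their median log2 fold change was -0.05. The share that passed was 33.3%, near the 24.2% of all tested genes and 27.7% of tested protein-coding genes.

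SCN3B encodes a beta subunit, an immunoglobulin-like membrane protein that modulates sodium channel gating (ENSG00000166257, chromosome 11, 123629187 to 123655244, minus strand, hg38). It was at 7.23, 7.36 and 7.17 FPKM in shNC and 5.16, 4.62 and 4.57 FPKM in shMYT1, with no overlap between the groups. It fell by 0.51 on the log2 scale (SE 0.05, 95% interval -0.63 to -0.40, limma adjusted p = 0.000909), from 7.25 ± 0.0994 to 4.78 ± 0.327 FPKM (SD, n = 3 each). The other beta subunit genes were lower in level: SCN4B had means of 1.26 and 1.05 FPKM (shNC, shMYT1; limma adjusted p = 0.272) and SCN2B 0.303 and 0.236 FPKM. In both of these genes, too, shMYT1 lay below shNC without overlap. Summed FPKM of the 4 beta genes was 8.92, 8.94 and 9 in shNC and 6.61, 5.90 and 5.94 in shMYT1.

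The pore genes of highest level were SCN9A, a channel of sympathetic and sensory neurons, and SCN3A, a channel of embryonic neurons. SCN9A was at 10.1, 10.2 and 10.3 FPKM in shNC and 11.1, 11.2 and 10.6 FPKM in shMYT1, which do not overlap, yet it did not pass (log2 fold change 0.10, 95% interval 0.02 to 0.17, limma adjusted p = 0.0803). With voom on recovered fragments SCN9A did pass (adjusted p = 0.039), but its recovered fragments were not whole numbers in all libraries. SCN3A was at 5.38, 5.18 and 5.40 FPKM in shNC and 5.41, 5.39 and 5.36 FPKM in shMYT1, overlapping throughout (log2 fold change 0.02, 95% interval -0.07 to 0.10, limma adjusted p = 0.795). SCN8A, a channel of axon initial segments, was at 2.45, 2.36 and 2.23 FPKM in shNC and 2.96, 2.88 and 2.79 FPKM in shMYT1. It rose by 0.21 (limma adjusted p = 0.0315), but this call was lost in 9 of 14 alternatives, among them every omission of a library (adjusted p up to 0.101).

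Of the sodium pore genes, 5 lie near each other on the long arm of chromosome 2, and none of the 5 passed with or without the filter. In map order they are SCN3A (165087522 to 165204067), SCN2A (165194993 to 165392310), SCN1A (165984641 to 166149214), SCN9A (166195185 to 166376001) and SCN7A (166403573 to 166494326). SCN2A was at 0.904, 0.895 and 0.871 FPKM in shNC and 0.751, 0.738 and 0.613 FPKM in shMYT1, SCN1A averaged 0.279 and 0.193 FPKM, and SCN7A averaged 0.188 and 0.0915 FPKM. In these 3, all under the filter, every shMYT1 library lay below every shNC library. Groups were also separate in 34.1% of protein-coding genes averaging 0.1 to 1 FPKM. Without the filter, the limma adjusted p of SCN2A, SCN1A and SCN7A was 0.323, 0.28 and 0.204. SCN7A had 11 to 49 fragments per library. In SCN9A the shMYT1 libraries lay above, and in SCN3A the groups overlapped. SCN2A and SCN3A are neighbours on opposite strands, and SCN1A and SCN9A both share exon bases with the opposite-strand gene AC010127.1. Summed FPKM of all 9 pore genes was 21.2, 21.0 and 21.3 in shNC and 22.2, 22.2 and 21.6 in shMYT1, of which SCN9A made up 47.9 to 48.7% and 49.2 to 50.6%.

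Potassium channel genes, the largest family, split evenly. Of 83 genes, 23 were tested, 6 rose (KCNT1, KCNJ12, KCNH8, KCNK3 and KCNK5 among them), 6 fell (KCNK1, KCNAB1, KCNJ9, KCNAB3, KCNC1, KCNJ8) and 11 did not pass. Their median log2 fold change was 0.08. The share that passed was 52.2%, against 24.2% of all tested genes and 27.7% of tested protein-coding genes.

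**Figure D4:**
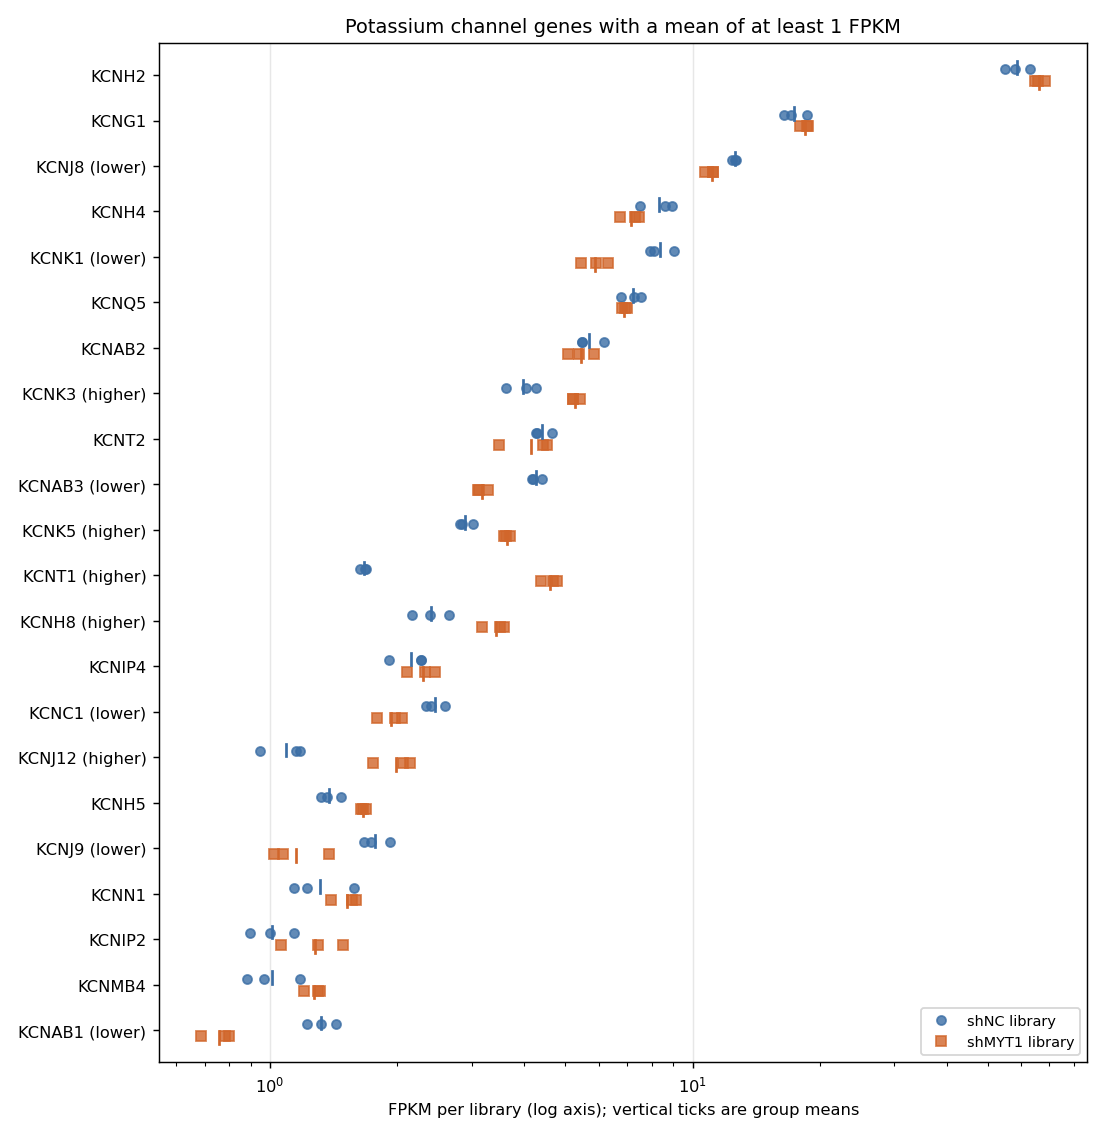
FPKM (log axis) of 22 potassium channel genes averaging 1 FPKM or more, 1 point per library, ordered by mean. KCNT1 shows the widest gap between groups, and the most abundant gene, KCNH2, lies above 50 FPKM in every library.

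KCNT1, which encodes a potassium channel opened by intracellular sodium, had the largest change of the family (ENSG00000107147, chromosome 9, 135702185 to 135795508, plus strand, hg38). It was at 1.69, 1.63 and 1.68 FPKM in shNC and 4.77, 4.37 and 4.67 FPKM in shMYT1, the groups lying far apart. The means of 1.67 ± 0.0301 and 4.60 ± 0.205 FPKM (SD, n = 3 each) differed 2.76-fold, a log2 fold change of 1.07 (SE 0.05, 95% interval 0.95 to 1.19, limma adjusted p = 8.61e-05). These levels rest on 417 to 1159 fragments per library. KCNT2, its closest relative, was at 4.66, 4.27 and 4.28 FPKM in shNC and 4.43, 4.52 and 3.49 FPKM in shMYT1. The KCNT2 groups overlapped (log2 fold change -0.08, 95% interval -0.28 to 0.13, limma adjusted p = 0.570).

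Calcium-activated channels were mostly low. KCNN2, a small-conductance channel gene, was at 0.819, 0.641 and 0.926 FPKM in shNC and 0.285, 0.205 and 0.262 FPKM in shMYT1. It fell in the fit without a filter (log2 fold change -0.52, limma adjusted p = 0.02), with an shNC mean 3.17 times the shMYT1 mean and 24 to 126 fragments per library. KCNN3, of the same family, went the other way at a lower level, with means of 0.0915 and 0.178 FPKM and no overlap. KCNN1 averaged 1.31 and 1.52 FPKM and did not pass. KCNMA1, the pore of the large-conductance channel, averaged 0.425 and 0.474 FPKM with overlapping groups. Its beta subunit gene KCNMB4 averaged 1.01 and 1.27 FPKM, with shMYT1 above and no overlap, and did not pass (limma adjusted p = 0.203).

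Voltage-gated pore genes held most of the potassium channel FPKM. KCNH2, the hERG channel gene, was the most abundant of the 119 genes at 55.0, 58.0 and 63.0 FPKM in shNC and 64.6, 65.7 and 68.4 FPKM in shMYT1. The lowest shMYT1 library lay above the highest shNC library, but the difference did not pass (log2 fold change 0.17, 95% interval 0.05 to 0.30, limma adjusted p = 0.0521). It passed in 4 alternatives, among them voom on recovered fragments (adjusted p = 0.000988). With the median of its neighbours, 0.09, subtracted, the log2 fold change was 0.08 (limma adjusted p = 0.314), the highest p over its alternatives. KCNQ5 had means of 7.21 and 6.90 FPKM with overlapping groups (limma adjusted p = 0.434), and KCNQ3 was under 0.1 FPKM in all 6 libraries.

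KCNH8 rose, at 2.17, 2.39 and 2.65 FPKM in shNC and 3.18, 3.57 and 3.51 FPKM in shMYT1 (log2 fold change 0.38, SE 0.07, limma adjusted p = 0.0104). No other gene of the ether-a-go-go family passed. In KCNH1, KCNH2, KCNH3, KCNH5 and KCNH6 shMYT1 lay above shNC without overlap, in KCNH4 it lay below, and in KCNH7 the groups overlapped. KCNH1, KCNH3 and KCNH6 were under the filter and did not pass without it (limma adjusted p = 0.131, 0.201 and 0.546). KCNH3 had 13 to 31 fragments per library and KCNH6 41 to 56. Groups were separate in 42.3% of all genes averaging at least 1 FPKM. At 0.1 to 1 FPKM they were separate in 18.7% of all genes and 34.1% of protein-coding genes. KCNH5 averaged 1.38 and 1.66 FPKM and KCNH4 8.35 and 7.16 FPKM, both without overlap and both short of the threshold (limma adjusted p = 0.130 and 0.0816). KCNC1, a channel of fast-spiking neurons, was at 2.41, 2.34 and 2.60 FPKM in shNC and 1.97, 1.79 and 2.05 FPKM in shMYT1. It fell by 0.23 (limma adjusted p = 0.0400), a call lost in 9 of 14 alternatives (adjusted p up to 0.102). KCNG1, a silent subunit that modifies other pores, averaged 17.4 and 18.5 FPKM with overlapping groups (log2 fold change 0.08, limma adjusted p = 0.281).

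Auxiliary subunits of voltage-gated potassium channels either fell or did not pass. KCNAB1 and KCNAB3 encode cytoplasmic beta subunits that speed inactivation of the pore. KCNAB1 was at 1.22, 1.43 and 1.32 FPKM in shNC and 0.687, 0.801 and 0.780 FPKM in shMYT1, a fall of 0.40 (SE 0.09, limma adjusted p = 0.0173). Its opposite-strand neighbour AC084036.1, which shares 121 exon bases with it, had means of 2.02 and 0.740 FPKM (shNC, shMYT1), and the call was lost without shMYT1 replicate 1 (limma adjusted p = 0.0566). Without shNC replicate 2 or shNC replicate 3, KCNAB1 was under the filter and was not tested. KCNAB3 was at 4.20, 4.40 and 4.16 FPKM in shNC and 3.12, 3.10 and 3.28 FPKM in shMYT1, a fall of 0.33 (SE 0.04, limma adjusted p = 0.00309). Both genes had separate groups. The third beta gene, KCNAB2, averaged 5.70 and 5.44 FPKM with overlap (limma adjusted p = 0.559). KCNIP4 and KCNIP2, of the calcium-binding KChIP family, averaged 2.16 and 2.30 FPKM and 1.01 and 1.28 FPKM, both with overlapping groups.

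Of 3 tested inward rectifier genes, whose channels pass current best near the resting potential, 1 rose and 2 fell. KCNJ12 was at 0.945, 1.15 and 1.18 FPKM in shNC and 2.06, 2.14 and 1.75 FPKM in shMYT1, a rise of 0.51 (SE 0.09, limma adjusted p = 0.00772). KCNJ12 has a near-identical copy, KCNJ18, whose reads cannot be separated with certainty. KCNJ9, a G protein-gated channel gene, was at 1.73, 1.92 and 1.67 FPKM in shNC and 1.07, 1.02 and 1.38 FPKM in shMYT1. It fell by 0.37 (SE 0.09, limma adjusted p = 0.0290), a call lost in 7 of 14 alternatives (adjusted p up to 0.0999). KCNJ8, a pore of ATP-sensitive channels, was at 12.4, 12.6 and 12.7 FPKM in shNC and 10.7, 11.2 and 11.2 FPKM in shMYT1, a fall of 0.17 (SE 0.03, limma adjusted p = 0.0118). With its neighbours' median of -0.05 subtracted it did not pass (log2 fold change -0.12, limma adjusted p = 0.0511). These 3 genes had separate groups, and the other 10 of the 13 rectifier genes were under the filter.

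Two-pore-domain channels carry the background potassium leak. KCNK1 was at 8.10, 9.04 and 7.94 FPKM in shNC and 6.30, 5.43 and 5.90 FPKM in shMYT1, a fall of 0.45 (SE 0.07, limma adjusted p = 0.00425). KCNK3 and KCNK5, which encode acid-sensitive leak channels, rose. KCNK3 was at 3.61, 4.04 and 4.27 FPKM in shNC and 5.22, 5.21 and 5.41 FPKM in shMYT1 (log2 fold change 0.34, limma adjusted p = 0.00781), and KCNK5 at 2.81, 2.85 and 3.03 FPKM and 3.69, 3.61 and 3.57 FPKM (log2 fold change 0.25, limma adjusted p = 0.0115). None of these groups overlapped. KCNK9, another acid-sensitive channel gene, had means of 0.142 and 0.0990 FPKM (shNC, shMYT1) with overlapping groups and did not pass without the filter (limma adjusted p = 0.615). KCNK10, a stretch- and lipid-gated channel gene under the filter, was at 0.412, 0.456 and 0.335 FPKM in shNC and 1.27, 1.03 and 1.16 FPKM in shMYT1, a ratio of means of 2.88 on 58 to 210 fragments per library. It rose in the fit without a filter (log2 fold change 0.62, limma adjusted p = 0.0114). Its relative KCNK2 was at 0.595, 0.341 and 0.524 FPKM in shNC and 0.871, 0.940 and 1.02 FPKM in shMYT1, without overlap, on 28 to 71 fragments per library. KCNK12 averaged 1.14 and 0.720 FPKM, with shMYT1 below. Unlike KCNK10, KCNK2 and KCNK12 did not pass in the fit without a filter (limma adjusted p = 0.0676 and 0.081). Summed over the 12 leak channel genes, the level was 17.9, 19.1 and 18.1 FPKM in shNC and 19.2, 17.8 and 19.1 FPKM in shMYT1, so the sum overlapped between groups while its makeup differed: KCNK1 gave 43.9 to 47.3% of it in shNC and 30.5 to 32.8% in shMYT1.

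The other 79 genes had a mean under 1 FPKM. Of these, 4 passed in the fit without a filter (3 higher, KCNK10 and CACNA2D3 among them, and KCNN2 lower). Among all genes under 1 FPKM, 1.8% passed in that fit. Between 0.1 and 1 FPKM there were 50 genes, of which 28 had separate groups, 16 with shMYT1 above and 12 below. Of all genes in that range 18.7% had separate groups, and of protein-coding genes 34.1%. The exons of these 50 genes have a median of 4604 bases, against 882 for all genes and 4042 for protein-coding genes of the range, and more exon bases give more fragments at the same FPKM. The part of length in this share was not tested. Examples with separate groups are KCNA3, the pore gene known from T cells, at means of 0.398 and 0.147 FPKM, KCNA2 at 0.220 and 0.384 FPKM, KCNH1 at 0.505 and 0.793 FPKM and KCNE4 at 0.248 and 0.0669 FPKM. None of these examples passed in the fit without a filter (limma adjusted p = 0.0613, 0.0871, 0.131 and 0.0806). KCNA3 had only 5 to 27 fragments per library and KCNE4 only 3 to 29. In 23 genes all 6 libraries were under 0.1 FPKM. Besides those named above (CACNA1A, CACNA1D, CACNA1F, CACNG6 and KCNQ3) these are CACNA2D4, SCN4A, KCNA4, KCNA5, KCNA7, KCNB2, KCND3, KCNE1, KCNG2, KCNG4, KCNH7, KCNIP1, KCNJ1, KCNJ6, KCNJ10, KCNK4, KCNMB1 and KCNMB2.

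Chromosomal neighbourhood was compared with the change of each channel gene. Of the 40 tested genes, only CACNG7 and CACNG8 had neighbours whose median log2 fold change, over the 50 nearest tested genes, was at least 0.1 in size. With that median subtracted from every gene, 17 of the 21 calls stood and 18.3% of all genes passed. The 4 calls lost were KCNJ8 (limma adjusted p = 0.0511), SCN8A (0.0601), CACNA1C (0.0603) and KCNC1 (0.0870). CACNA1H kept a log2 fold change of 1.07, KCNT1 of 1.00 and SCN3B of -0.48. Tested channel genes were also long: their median span from first to last base was 68.6 kb. It was 24.2 kb for all tested genes and 33.4 kb for tested protein-coding genes. The genes that rose and those that fell had like spans, with medians of 68.7 and 63.5 kb.

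**Figure D5:**
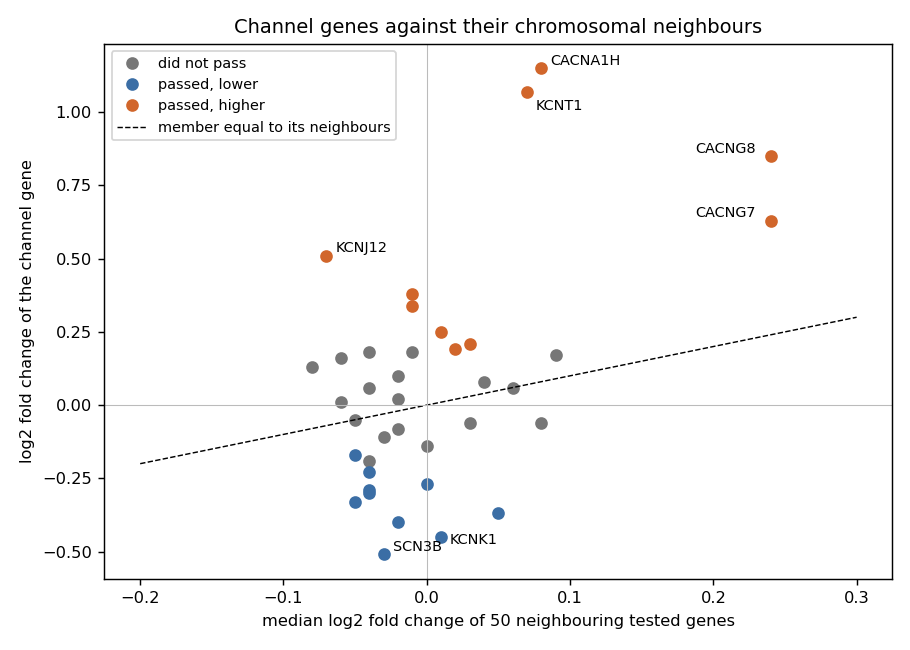
Log2 fold change of 38 of the 40 tested channel genes (vertical) against the median log2 fold change of the 50 tested genes around each (horizontal). All points but CACNG7 and CACNG8 lie within 0.1 of 0 on the horizontal axis, and the dashed line marks equality.

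RefSeq promoters (GRCh38.p14, the same chromosome coordinates as hg38) were found for 27 of the 40 tested genes and 12 of the 21 that passed. The sequences below are the 240 bases from 250 to 11 before the RefSeq start of the 2 genes that rose and the 2 that fell most, among those whose RefSeq start lies at most 10 bases inside and at most 200 bases before the GENCODE gene. They are shown to let the letters before genes of opposite direction be compared. Capitals mark the GC box GGGCGG on either strand, the E-box CACGTG read by MYC-type factors and AAAGTTT on either strand, which holds the core letters bound by MYT1-family zinc fingers. Of these only the GC box occurred here.
KCNT1, chr9:135701935-135702174, plus strand: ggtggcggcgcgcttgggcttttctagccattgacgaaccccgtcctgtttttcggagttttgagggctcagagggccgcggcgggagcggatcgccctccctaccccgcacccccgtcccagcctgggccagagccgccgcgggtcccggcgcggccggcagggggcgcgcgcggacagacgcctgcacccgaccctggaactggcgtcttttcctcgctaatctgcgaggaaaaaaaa
KCNK5, chr6:39229486-39229725, minus strand: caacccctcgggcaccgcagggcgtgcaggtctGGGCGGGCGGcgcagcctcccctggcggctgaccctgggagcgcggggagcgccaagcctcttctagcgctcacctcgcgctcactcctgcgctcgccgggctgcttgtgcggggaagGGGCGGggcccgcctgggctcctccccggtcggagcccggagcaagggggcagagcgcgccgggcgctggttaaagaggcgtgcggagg
CACNA2D1, chr7:82443967-82444206, minus strand: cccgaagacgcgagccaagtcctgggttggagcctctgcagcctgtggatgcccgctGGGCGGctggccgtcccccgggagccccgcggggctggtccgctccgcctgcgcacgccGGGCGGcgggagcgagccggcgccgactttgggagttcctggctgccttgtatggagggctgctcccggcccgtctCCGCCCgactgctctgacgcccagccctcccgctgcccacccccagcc
KCNC1, chr11:17734531-17734770, plus strand: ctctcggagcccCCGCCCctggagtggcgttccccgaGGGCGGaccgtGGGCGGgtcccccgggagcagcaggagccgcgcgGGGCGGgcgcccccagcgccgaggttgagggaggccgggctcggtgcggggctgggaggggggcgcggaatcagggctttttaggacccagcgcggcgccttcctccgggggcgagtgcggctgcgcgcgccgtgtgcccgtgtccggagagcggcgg
The GC box was found 0 times before KCNT1, 3 times before KCNK5, 3 times before CACNA2D1 and 4 times before KCNC1. Among all 35116 promoter windows of this length 41.4% hold it, 6.01% hold CACGTG and 3.62% hold AAAGTTT. GC content was 68.8% before KCNT1, 76.2% before KCNK5, 75.8% before CACNA2D1 and 79.2% before KCNC1, against a median of 57.9% over all windows. Over every RefSeq start of the tested genes, the GC box stood in 5 of 7 windows of genes that rose, 5 of 11 of genes that fell and 19 of 31 of genes that did not pass. AAAGTTT stood in 0, 0 and 1 of these windows and CACGTG in 0, 1 and 2. Several genes have more than 1 start. These matches describe letters and are not evidence of binding.

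Other genes of ion transport were taken from 5 lists, to be read against 24.2% of all tested genes. Of 27 tested channel partners and anchors, 9 rose and 5 fell, with a median log2 fold change of 0.12. LRRC55, which encodes an auxiliary subunit of the large-conductance potassium channel, was at 1.13, 1.23 and 1.20 FPKM in shNC and 4.88, 4.78 and 4.83 FPKM in shMYT1, a larger rise than that of any channel gene (log2 fold change 1.41, limma adjusted p = 4.42e-05). CALM3, one of the calmodulin genes, rose from 40.7 to 58.3 FPKM (log2 fold change 0.51, with a neighbour median of 0.33). AMIGO1, a cell adhesion protein that partners potassium channels, fell from 2.34 to 1.40 FPKM. Of 18 tested pumps and exchangers, 5 rose and 1 fell, with a median of 0.06. ATP2B4, a plasma membrane calcium pump gene, was at 6.78, 6.64 and 6.67 FPKM in shNC and 10.9, 11 and 11.4 FPKM in shMYT1 (log2 fold change 0.65, limma adjusted p = 9.47e-05). SLC12A7, a potassium-chloride cotransporter gene, fell from 2.94 to 2.12 FPKM.

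Of 16 tested cation channels outside the 3 families, 2 rose and 4 fell, with a median of 0.02. FAM155A, a subunit of the sodium leak channel, rose from 5.12 to 6.86 FPKM (log2 fold change 0.36). With its neighbours' median of 0.27 subtracted it did not pass (limma adjusted p = 0.259). The TRP channel genes TRPC1 and TRPA1 fell from 4.06 to 2.63 FPKM and from 4.69 to 3.26 FPKM. Of 7 tested genes of calcium release and store-operated entry, 2 rose, the inositol trisphosphate receptor genes ITPR2 (1.47 to 2.01 FPKM) and ITPR3 (0.970 to 1.39 FPKM). ITPR3, with an shNC mean under 1 FPKM, entered the test through the shMYT1 group. With its neighbours' median of 0.03 subtracted ITPR3 did not pass (limma adjusted p = 0.0766). Of 14 tested chloride channel genes, 0 rose and 1 fell, ANO6, a scramblase and channel gene, from 26.7 to 20.9 FPKM (limma adjusted p = 0.00158).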

How the data were processed

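RNA from 6 libraries of SK-N-BE(2) cells was sequenced by the submitters, 3 per group. The authors deposited 1 table of FPKM, with 1 column per library per the file headers. HISAT2 2.0.5, featureCounts 1.5.0-p3 and hg38 were used, per the submitters' processing notes. The annotation, strand setting and scaling used are not given in these sources. Symbols, types and positions came from GENCODE 29 (32301 of 32434 IDs, 99.59%). For 95.4% of these IDs, FPKM times union exon length divided by a library's step size was whole to within 0.01, and the quotients were taken as fragments. Totals are approximate. For 106 of the 119 channel genes the recovered fragments were whole in all libraries. The exceptions include SCN9A, SCN7A, KCNN2 and KCNH3, whose fragment numbers are approximate. Fragment numbers cover counting error only.

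Two-sided tests in limma 3.58.1 (R 4.3.3) used log2(FPKM + 1), a trended prior variance and a filter of 1 FPKM on the mean. Genes with a Benjamini-Hochberg adjusted p under 0.05 passed. Log2 fold changes are on that scale, which understates the change of low genes. Only the 6 libraries of the 2 groups entered. The main limma fit was tested on simulated counts. The rule named every channel gene that passed, the 3 highest per ion, up to 6 under the filter that passed without it, MYT1, and up to 3 per list of other transport genes. Other channel genes given with values were chosen after their values were seen. Some genes, though counted, are not reported by name or plotted here. The members and lists were chosen with earlier results of these data known. Of the 119 genes, 40 share exon bases with an opposite-strand gene and 12 with a same-strand gene, so their fragments cannot be assigned with certainty. Other settings changed the filter, the pseudocount, the scaling and the variance or count model (voom), added a replicate block, removed the regional running median and left out each library.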

Additional observations from a re-analysis of the deposited data

How the results depend on the processing

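Of the 21 channel genes that passed, 14 kept direction and call in every alternative in which they were tested, among them CACNA1H (log2 fold change 1.07 to 1.31), KCNT1 (1.00 to 1.47), CACNG7, CACNG8, CACNG4, CACNA2D1, SCN3B, KCNH8, KCNJ12, KCNK1, KCNK3, KCNK5 and KCNAB3. KCNAB1 lost its call without shMYT1 replicate 1 (limma adjusted p = 0.0566) and KCNJ8 with the regional median removed, and CACNA2D2, SCN8A, KCNC1, KCNJ9 and CACNA1C in 6 to 10 settings each. Without shNC replicate 2 or shNC replicate 3, KCNAB1 was under the filter and was not tested. SCN3A, not called, changed sign when libraries were rescaled to the same FPKM total (-0.02) and without shNC replicate 2 (-0.00). Omissions of 1 library gave SCN3A -0.00 to 0.02.

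With a minimum of 5 FPKM, 2 calcium genes rose, 0 sodium genes rose, and 2 potassium genes rose and 2 fell, since fewer genes were tested. The number of sodium genes that rose was 0 with no filter, 0 with the same FPKM total, 0 with the regional median removed and 2 with voom. For omissions of 1 library it was 0 to 0, and the number of potassium genes that fell was 3 to 5. Over all genes these omissions gave 1025 to 1589 higher and 1013 to 1459 lower, against 1683 and 1737. Each such fit has fewer samples. Rescaling to the same FPKM total put 36.4% of all calls and 47.6% of channel calls on the higher side, against 49.2% and 52.4% as deposited.

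Whether replicate numbers shared by the groups pair the libraries cannot be told from these values. Deviations of same-numbered libraries correlated weakly, at 0.033, 0.013 and 0.043, though each library correlated best with its own number. The other pairs gave -0.039 to 0.008. With the replicate block, 11 channel genes rose and 7 fell, against 11 and 10. The block gave 1652 higher and 1729 lower over all genes, and MYT1 kept its call.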
